A study of Mus musculus with 8 samples.

Results

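The genes described here are the 5 muscarinic acetylcholine receptors Chrm1, Chrm2, Chrm3, Chrm4 and Chrm5, the nicotinic receptor subunits Chrna2, Chrna4, Chrna7 and Chrnb2, and Ache, which encodes acetylcholinesterase. They were chosen by symbol as components of the system on which pilocarpine acts, and make up 10 of the 55471 genes of the exonic count table. Nuclear polyadenylated RNA was sequenced from forebrain excitatory neurons of male C57BL/6J mice aged 6 to 8 weeks, with 4 samples per group. All mice were of the genotype CaMKIIalpha-Cre:SUN1-sfGFP. A Cre recombinase driven by the Camk2a promoter switches on a GFP-tagged nuclear envelope protein in them, and nuclei were captured with antibody against the tag. All mice were given scopolamine methyl nitrate first, at 1 mg/kg, which blocks muscarinic receptors mainly outside the brain. Pilocarpine at 340 mg/kg followed 30 min later in the Pilo group, and saline in the Mock group. Pilo mice had 100 min in which acute seizures developed, and those with Racine scores of 3 to 5 were used. The muscarinic agonist and the seizures came together in every Pilo sample, so their effects on these genes cannot be told apart.

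Muscarinic receptors are G-protein-coupled. Chrm1, Chrm3 and Chrm5 couple mainly to Gq and phospholipase C, whereas Chrm2 and Chrm4 couple mainly to Gi and reduce cAMP. Nicotinic receptors are pentameric cation channels. Chrna4 and Chrnb2 subunits together form the main high-affinity nicotinic receptor of the brain, and Chrna7 forms homomeric, calcium-permeable channels. Acetylcholinesterase ends the signal by hydrolysing acetylcholine in the synaptic cleft.

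The exonic table held 29356788 to 36161448 counts per library. A second table held separate exonic and intronic columns for 18513 genes, with 27135364 to 33715773 exonic and 11928054 to 16703475 intronic counts per library. It covered 8 of the 10 genes, and the intronic signal of Chrm4 and Chrm5 is not analysed here. By correlation over genes, replicate 2 of each group in one table matched replicate 3 in the other, and replicate 3 matched replicate 2. Each replicate is numbered below as in the table being described. Summed exonic levels of 6 excitatory markers, among them Slc17a7 and Camk2a, were 2269.6 to 2909 CPM in Mock and 2538 to 3099.8 CPM in Pilo, where CPM is the count scaled to library size with TMM factors. Markers of other cells were present as well, and none of their markers was at 0 in all libraries. Sums were 119.8 to 156 and 156 to 244 CPM (Mock and Pilo) for 7 inhibitory markers, 249 to 352 and 279.8 to 405 for 7 striatal projection neuron markers, 1.19 to 2.82 and 1.89 to 3.03 for 5 cholinergic neuron markers, 111 to 234 and 114 to 304 for 5 astrocyte markers, 279 to 380 and 359 to 641 for 5 oligodendrocyte markers, 11.8 to 28.7 and 13.1 to 41.5 for 3 precursor markers, 11.2 to 16.9 and 12.3 to 20.1 for 5 microglial markers, and 3.27 to 12.9 and 5.16 to 37.5 for 4 endothelial markers. In such bulk samples, fewer cells of a type and less RNA per cell cannot be told apart.

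Exonic levels per length spanned a wide range in Mock nuclei. Lengths were taken from GENCODE, where Chrm4 and Chrm5 have 1 exon each, of 1440 and 1599 bases, and no intron. The other genes have 3787 to 8380 exonic bases. The annotation behind the counts is not given, so the places of Chrm4 and Chrm5 in the order below depend on these lengths. Chrm1 stood highest at 19.6 ± 1.37 CPM per kilobase of exon (SD, n = 4 here and below), followed by Ache at 17.8 ± 3.03 and Chrm4 at 16.6 ± 1.62. The Mock ranges of these neighbours in the order overlapped, so they do not differ beyond their spread. Chrnb2 came next at 7.49 ± 0.35, clear of Chrm4 above it and of Chrna4 below it at 5.17 ± 0.34. Chrm3 at 5.10 ± 0.43 overlapped Chrna4. Chrm2 at 2.54 ± 0.41 and Chrna7 at 2.09 ± 0.40 overlapped each other and lay below Chrm3. Chrm5 at 0.155 ± 0.114 and Chrna2 at 0.0358 ± 0.0182 were the least abundant, with overlapping ranges. In Pilo nuclei Chrm1 was again highest, at 21.6 ± 2.42 CPM per kilobase, and Chrna2 lowest, at 0.139 ± 0.0394, but their ranges overlapped those of Ache and Chrm5.

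**Figure D1:**
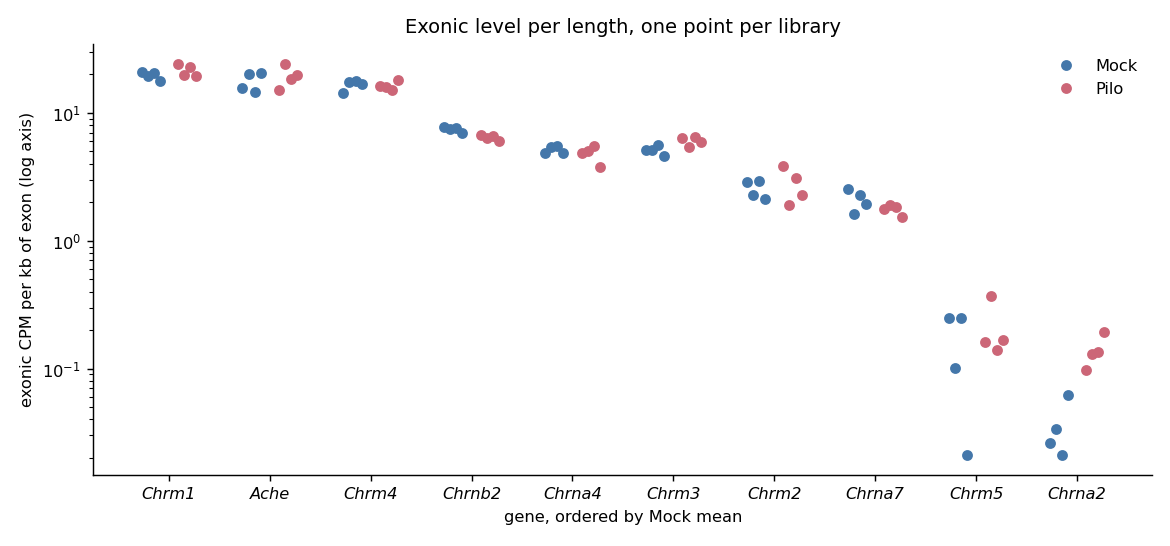
Exonic CPM per kilobase of exon on a log axis for the 10 genes, ordered by Mock mean, with 1 point per library (4 Mock, blue, and 4 Pilo, red). Chrm1, Ache and Chrm4 lie together at the top, and Chrm5 and Chrna2 lie far below the other genes. The places of Chrm4 and Chrm5 depend on their short GENCODE lengths.

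In exonic reads, 9 of the 10 genes passed the filter on low counts. Chrna2 rose and Chrnb2 fell, and the other 7 did not pass (edgeR quasi-likelihood test, Benjamini-Hochberg adjusted p under 0.05). Of all 19176 genes tested, 31.8% passed in either direction, 15.6% higher and 16.2% lower. The median log2 fold change of the 9 genes was 0.12, beside 0.00 over all genes tested.

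The Gq-coupled muscarinic receptors had the following levels. Chrm1 (ENSMUSG00000032773, GRCm38 chromosome 19, 8663789 to 8683587), the most abundant muscarinic receptor of the forebrain, stood at 135, 126, 132 and 115 CPM in Mock replicates 1 to 4 and at 158, 129, 149 and 125 CPM in Pilo replicates 1 to 4. Pilo replicates 1 and 3 were above every Mock library and the other Pilo libraries were within the Mock range. Its log2 fold change was 0.14 (SE 0.09, 95% interval -0.05 to 0.34, edgeR adjusted p = 0.251). Chrm3 (ENSMUSG00000046159, chromosome 13, 9875486 to 10360847), a receptor also known from glands and smooth muscle, stood at 31.8, 32, 35.1 and 28.6 CPM in Mock and 39.6, 33.7, 40.3 and 37.1 CPM in Pilo. All Pilo libraries except replicate 2 were above the Mock range. The log2 fold change of Chrm3 was 0.24 (SE 0.09, interval 0.05 to 0.43), just outside the threshold at an edgeR adjusted p of 0.0503. Same-numbered libraries of both groups deviated together. With the replicate number as a block both genes passed, Chrm1 at an edgeR adjusted p of 0.0359 and Chrm3 at 0.00599. In that blocked fit 47% of all genes passed, 23.8% higher and 23.2% lower. Chrm3 passed also under DESeq2 and under RLE size factors, at adjusted p values of 0.0355 and 0.0458. It passed without Mock replicate 3 or Pilo replicate 2 as well, at 0.0269 and 0.0297. Dropping any other single library kept Chrm3 above the threshold, at edgeR adjusted p values of 0.0924 to 0.143. So did limma-voom (0.0554), the fit with no filter on low counts (0.0808) and a filter of 50 counts in 4 libraries (0.0578).

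Chrm5 (ENSMUSG00000074939, chromosome 2, 112479171 to 112480769), best known from dopamine neurons of the midbrain, was at the edge of detection. Its exonic reads numbered 12, 5, 15 and 1 in Mock and 9, 18, 7 and 8 in Pilo. The groups overlapped, and the low-count filter left the gene out of the fit. The scaled ratio of Pilo to Mock reads was 1.29, with an exact 95% interval of 0.797 to 2.10 that covers counting error only. An exact two-sided permutation test of its CPM gave p = 0.514.

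The Gi-coupled receptors did not pass in exonic reads. Chrm4 (ENSMUSG00000040495, chromosome 2, 91927249 to 91928688), a receptor abundant in striatal projection neurons, stood at 20.5, 25.3, 25.5 and 24.2 CPM in Mock and 23.2, 23.0, 21.8 and 26.0 CPM in Pilo. These ranges overlapped almost fully, and its log2 fold change was -0.02 (SE 0.09, interval -0.23 to 0.18). Chrm2 (ENSMUSG00000045613, chromosome 6, 36388084 to 36528414), often a presynaptic autoreceptor, varied more, at 17.4, 13.7, 17.6 and 12.8 CPM in Mock and 23.2, 11.6, 18.7 and 13.8 CPM in Pilo. In Mock and in Pilo alike, replicates 1 and 3 were above replicates 2 and 4. The exonic log2 fold change of Chrm2 was 0.13 (SE 0.20, interval -0.31 to 0.57, edgeR adjusted p = 0.677).

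Among the nicotinic subunits, Chrna2 had the largest exonic change. Chrna2 (ENSMUSG00000022041, chromosome 14, 66135039 to 66152948), a subunit known from a class of hippocampal interneurons, had 3, 4, 3 and 7 exonic reads in Mock replicates 1 to 4 and 13, 15, 16 and 22 in Pilo replicates 1 to 4. Every Pilo library was above every Mock library, at 0.371 to 0.729 against 0.0799 to 0.235 CPM. Groups that do not overlap in exonic CPM were found for 32% of all genes tested. The log2 fold change of Chrna2 was 1.94 (SE 0.42, edgeR adjusted p = 0.00295), and it stayed between 1.75 and 2.33 when each library was left out in turn. A filter asking for at least 50 counts in 4 libraries left the gene untested. With at most 7 reads in Mock, Chrna2 was under the main filter's minimum count of 10 in that group. It entered the test only through Pilo, where it is high. The call and the separation of the groups are therefore not independent of how the gene was admitted.

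Intronic reads of Chrna2 differed in the same direction. They numbered 1, 1, 1 and 0 in Mock and 5, 8, 11 and 15 in Pilo, too few for the intronic fit. The scaled ratio of Pilo to Mock was 15.3, with an exact interval of 4.87 to 77.5 for counting error only. An exact two-sided permutation test of the intronic CPM gave p = 0.0286, the smallest that 4 against 4 allows, or 0.0571 adjusted over the 2 such tests made. Over exons and introns together Chrna2 rose by 2.46 on the log2 scale (SE 0.40, edgeR adjusted p = 0.000459). There too it passed the filter only through Pilo.

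Some markers of inhibitory neurons, of excitatory neurons and of other cells, and a gene next to Chrna2, rose as well. Of 7 inhibitory markers, Gad1 and Gad2, which encode the enzymes of GABA synthesis, rose in exonic reads, by 0.46 (SE 0.15, edgeR adjusted p = 0.0357) and 0.43 (SE 0.14, adjusted p = 0.0333), and 0 fell. Of 6 excitatory markers, Neurod2, Neurod6 and Tbr1 rose, by 0.51 (SE 0.11), 0.34 (SE 0.11) and 0.24 (SE 0.07). Among other cells, 2 of 7 striatal projection neuron, 1 of 5 oligodendrocyte and 1 of 3 precursor markers rose in exonic reads. No astrocyte, microglial or endothelial marker passed. Of all genes tested in exons, 15.6% rose. In exonic reads Sst, a peptide gene of the interneuron class in question, stood at a log2 fold change of 0.34 (SE 0.13, edgeR adjusted p = 0.0613). Its intronic reads rose by 1.42 (SE 0.28, edgeR adjusted p = 0.000859). In introns 4 of the 7 inhibitory markers rose, which were Gad1, Gad2, Sst and Vip, beside 19.6% of all genes. Slc32a1, Pvalb and Lhx6 did not pass there. Ptk2b, a calcium-activated tyrosine kinase gene, lies 308 bases from the 3′ end of Chrna2 on the opposite strand. Its mean exonic level was 424 CPM in Mock and 526 CPM in Pilo, which is 0.31 on the log2 scale (SE 0.09, edgeR adjusted p = 0.0181), and its intronic reads rose by 0.65 (SE 0.10, adjusted p = 0.000161). Ephx2, the gene on the other side of Chrna2, fell by 0.62 (SE 0.12, edgeR adjusted p = 0.00164). The part of the inhibitory nuclei or of Ptk2b reads in the result for Chrna2 was not tested.

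Chrnb2 (ENSMUSG00000027950, chromosome 3, 89746195 to 89764632) stood at 65.6, 62.8, 63.9 and 58.7 CPM in Mock and 56.6, 52.9, 55.4 and 50.7 CPM in Pilo in the exonic table. All Pilo libraries were below all Mock libraries, as they were for 16.2% of all genes tested. It fell by 0.22 on the log2 scale (SE 0.07, edgeR adjusted p = 0.0283). The call was lost in 5 of 8 fits that left a library out (Mock replicates 1, 2 and 3, Pilo replicates 2 and 4), with adjusted p reaching 0.111, and with no filter on low counts it was lost at 0.0713. In GENCODE the exons of Chrnb2 share 1365 bases with Adar, a gene on the opposite strand with an exonic change of 0.23 (SE 0.08, adjusted p = 0.0399) and 85997 exonic counts over all libraries, against 14960 for Chrnb2. Whether the counting used strand is not given in the sources used here.

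The partner subunit gene Chrna4 (ENSMUSG00000027577, chromosome 2, 181018380 to 181043546) stood at 24.6, 27.4, 27.5 and 24.4 CPM in Mock and 24.6, 25.3, 27.5 and 18.9 CPM in Pilo. Pilo replicate 4 was the lowest library and the others lay with Mock. The log2 fold change was -0.11 (SE 0.11, interval -0.35 to 0.13, edgeR adjusted p = 0.491). Chrna7 (ENSMUSG00000030525, chromosome 7, 63098692 to 63212569) stood at 11.4, 7.24, 10.2 and 8.78 CPM in Mock and 7.91, 8.58, 8.23 and 6.96 CPM in Pilo. The groups overlapped through Mock replicate 2, and the exonic log2 fold change was -0.25 (SE 0.14, interval -0.56 to 0.06, edgeR adjusted p = 0.208).

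Ache (ENSMUSG00000023328, chromosome 5, 137287519 to 137294466) was spread widely within both groups, at 72.7, 92.5, 67.8 and 95.7 CPM in Mock and 69.5, 111, 85.0 and 91.1 CPM in Pilo. In Mock and in Pilo alike, replicates 2 and 4 were above replicates 1 and 3. Its log2 fold change was 0.12 (SE 0.15, interval -0.21 to 0.44, edgeR adjusted p = 0.593).

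**Figure D2:**
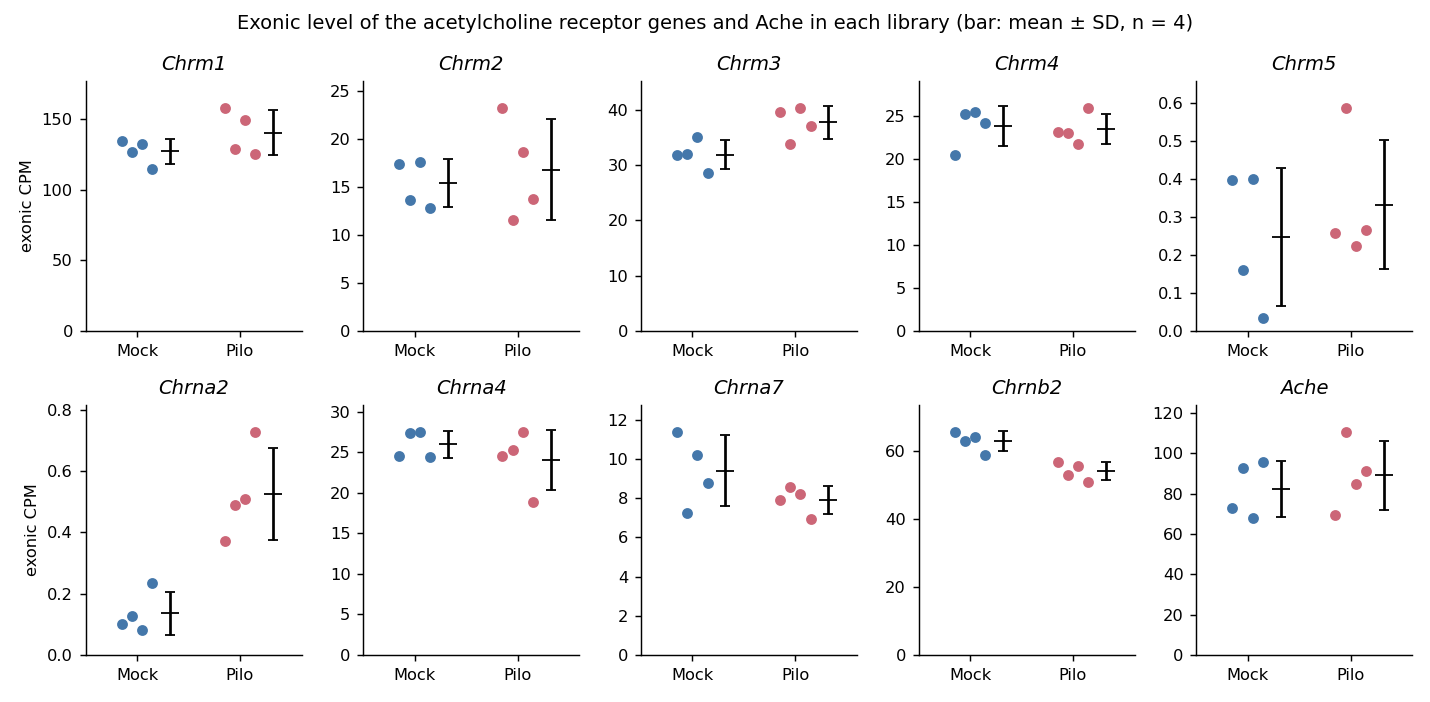
Exonic CPM of the 10 genes in each library, with 4 Mock points (blue) and 4 Pilo points (red) in replicate order and the mean ± SD beside them, each panel starting at 0. Chrna2 is higher and Chrnb2 lower in every Pilo library than in any Mock library, and the groups overlap for the other genes.

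Intronic reads of nuclear RNA come largely from transcripts that are not yet spliced. Of the 8 genes in the second table, 7 passed the filter in intronic reads. Chrnb2 and Chrm2 rose and Chrna7 fell, while Chrm1, Chrm3, Chrna4 and Ache did not pass. Of all 13318 genes tested in introns, 41.4% passed in either direction, 19.6% higher and 21.9% lower. The median log2 fold change was 0.15 for the 7 genes and 0.00 over all genes tested. For the 8 genes, exonic values set beside intronic ones below are those of the second table. There 34% of genes passed and Chrna2 rose and Chrnb2 fell, as in the first. For the other genes of acetylcholine signalling, exonic levels and changes below are those of the first table. Their differences between regions are those of the second.

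Chrnb2 moved in opposite directions in its exons and introns. Its intronic level was 25.0, 20.4, 23.8 and 25.2 CPM in Mock and 29.1, 27.9, 32.7 and 32.2 CPM in Pilo, whereas its exonic level was 71.0, 69.3, 67.8 and 63.9 CPM in Mock and 60.4, 59.1, 56.0 and 53.8 CPM in Pilo. Every Pilo library was thus above Mock in introns and below Mock in exons. Of all genes tested in introns, 17.8% had every Pilo library above Mock. In exons of the first table, 16.2% had every Pilo library below Mock. Introns rose by 0.37 on the log2 scale (SE 0.12, edgeR adjusted p = 0.0212) and exons fell by 0.25 (SE 0.07, edgeR adjusted p = 0.0147). The test of the difference between regions gave an exonic minus intronic change of -0.62 (SE 0.11, edgeR adjusted p = 0.00106), against 26.2% of 13047 genes that passed it in either direction and 12.8% in this direction. This difference passed in each of the 8 fits without a library, at -0.69 to -0.54, and in every other setting tried. The intronic rise taken alone did not pass without Mock replicate 2 or Pilo replicate 3 or 4, at adjusted p values of 0.0711, 0.0653 and 0.067. The spans of Chrnb2 and Adar share 7252 bases, and Adar changed by 0.21 in introns (SE 0.09, edgeR adjusted p = 0.0653), the sign of the intronic rise of Chrnb2. The part of Adar reads in the exonic, intronic and difference values of Chrnb2 was not tested. Over exons and introns together the change of Chrnb2 was -0.08 (SE 0.07, edgeR adjusted p = 0.377). Intronic reads made up 12.7% to 17.1% of the reads of Chrnb2 in Mock and 15.8% to 20.3% in Pilo. Such shares are of raw reads. Over all genes, intronic counts were a smaller part of the counts in every Pilo library than in any Mock library.

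Chrm2 rose in introns. Its intronic level was 10.3, 10.8, 7.70 and 12.6 CPM in Mock and 18.1, 13.4, 13.3 and 14.8 CPM in Pilo. The Pilo libraries were all above the Mock libraries, although Pilo replicate 3 exceeded Mock replicate 4 only slightly. In intronic CPM, 37% of all genes tested had groups that did not overlap. The log2 fold change was 0.53 (SE 0.17, edgeR adjusted p = 0.0201). It did not pass without Mock replicate 3 (adjusted p = 0.0608) or Pilo replicate 1 (adjusted p = 0.0597). The exonic change in the same table was 0.10 (SE 0.20), and the exonic minus intronic difference was -0.45 (SE 0.19, edgeR adjusted p = 0.0958). Blocking on the replicate number, that difference passed at an edgeR adjusted p of 0.0105, where 39.3% of all genes passed. It also passed without Mock replicate 4 (-0.63, edgeR adjusted p = 0.0145).

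Chrna7 fell in introns, close to the threshold. Its intronic level was 35.8, 29.5, 24.2 and 26.6 CPM in Mock and 20.8, 25.5, 21.8 and 22.8 CPM in Pilo. Pilo replicate 2 was above Mock replicate 3, and the other Pilo libraries were below all Mock libraries. The intronic log2 fold change was -0.35 (SE 0.14, edgeR adjusted p = 0.0493) and that over exons and introns together -0.36 (SE 0.13, edgeR adjusted p = 0.0420). Both calls held only where Mock replicate 3 or Pilo replicate 2 was the library left out. Adjusted p reached 0.194 in introns and 0.145 in the gene body on leaving out Mock replicate 1. Under limma-voom neither passed (adjusted p = 0.0563 and 0.0569), nor did introns with RLE size factors (adjusted p = 0.0599). Exonic and intronic changes did not differ detectably, with a difference of 0.08 (SE 0.11, interval -0.15 to 0.32, edgeR adjusted p = 0.610). The intronic share of Chrna7 reads was 56.9% to 59.6% in Mock and 51.1% to 56.5% in Pilo. This is a share of raw reads, and the intronic share of whole libraries was lower in Pilo too.

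**Figure D3:**
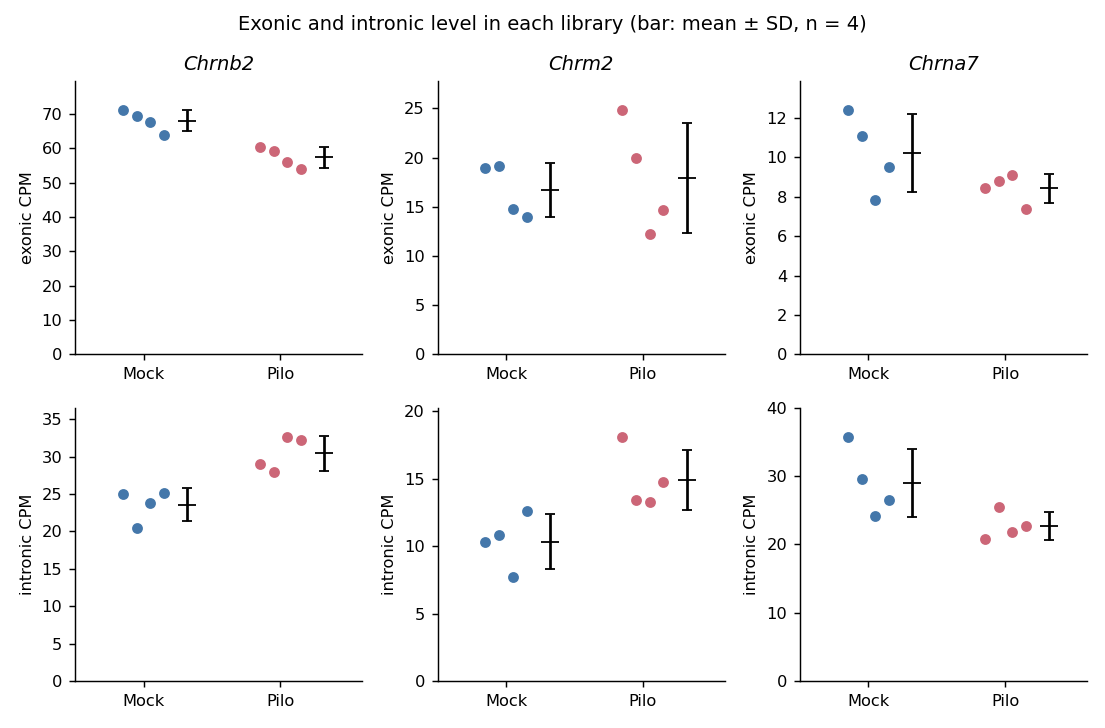
Exonic (top) and intronic (bottom) CPM of Chrnb2, Chrm2 and Chrna7 in each library of the second table, 4 Mock (blue) and 4 Pilo (red), with mean ± SD and axes from 0. Chrnb2 is lower in Pilo in exons and higher in introns, Chrm2 is higher in introns with overlapping exonic levels, and Chrna7 tends lower in introns with 1 Pilo library inside the Mock range.

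Chrm3, whose introns span 479 kilobases against 6.25 kilobases of exon, had more intronic than exonic reads. Its intronic level was 109, 109.5, 120.4 and 146 CPM in Mock and 122, 136, 135 and 166 CPM in Pilo. Mock replicate 4 and Pilo replicate 4 were the highest of their groups, and the groups overlapped. The intronic log2 fold change was 0.21 (SE 0.12, edgeR adjusted p = 0.182), close to the exonic 0.21 (SE 0.09) of the same table, with a difference of 0.01 (interval -0.32 to 0.33). With the replicate number as a block the intronic change of Chrm3 passed at an edgeR adjusted p of 0.00964. In that blocked fit 56.9% of all genes passed in introns. Chrm1, by contrast, had an intronic change of -0.01 (SE 0.15, interval -0.33 to 0.30). Its intronic share of raw reads was only 5.68% to 9.83% in Mock and 4.24% to 7.27% in Pilo, where whole libraries had lower shares too. Chrna4 had an intronic change of -0.07 (SE 0.17), at 25.4 to 37.6 CPM in Mock and 20.6 to 36.5 CPM in Pilo. Ache had an intronic change of 0.15 (SE 0.18), at 26.3 to 40.96 CPM in Mock and 25.3 to 45.1 CPM in Pilo.

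Over exons and introns together, Chrna2 rose and Chrna7 fell among the 8 genes, and 37.2% of 14816 genes passed in either direction. In the blocked fit, in which 53.9% of all genes passed, the 3 muscarinic genes Chrm1, Chrm2 and Chrm3 passed as well. Their blocked log2 fold changes were 0.19 (SE 0.05, edgeR adjusted p = 0.00589), 0.23 (SE 0.09, adjusted p = 0.0451) and 0.16 (SE 0.05, adjusted p = 0.0185).

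**Figure D4:**
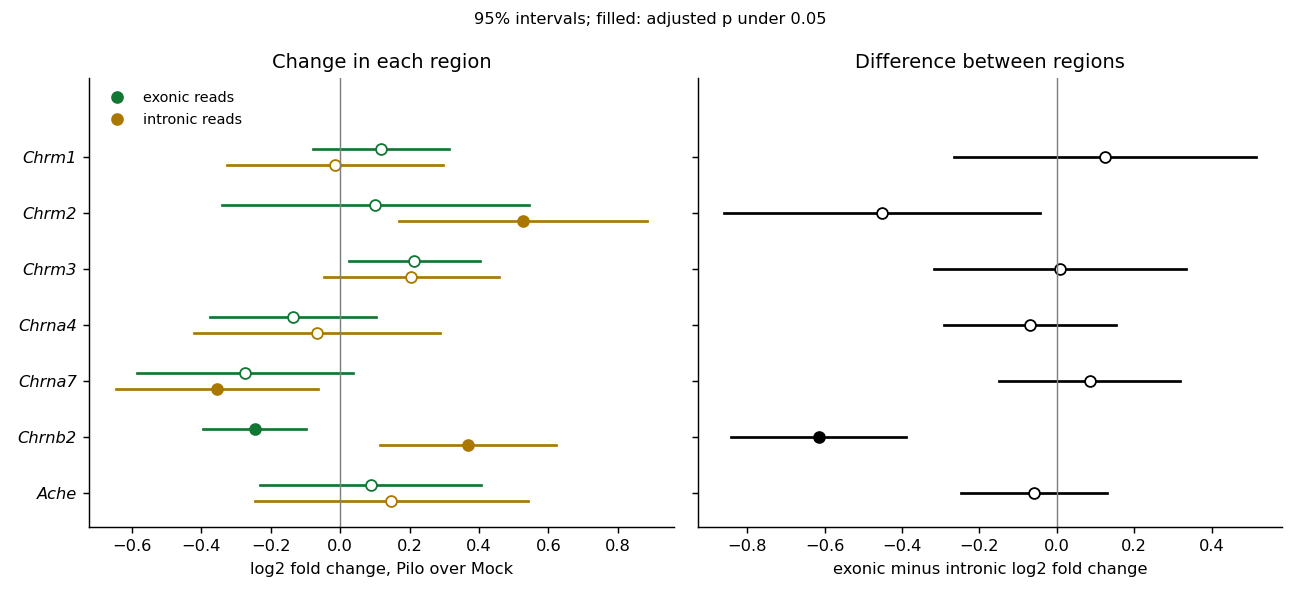
Log2 fold change of Pilo over Mock in exonic (green) and intronic (orange) reads of the second table for 7 genes (left), and the exonic minus intronic difference (right), with 95% intervals and filled points where the edgeR adjusted p is under 0.05. Chrnb2 is the one gene of the 7 whose regions differ past the threshold, at -0.62.

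The proximal promoters of the 3 genes with a called intronic change are shown as the sequence context of these genes. RefSeq promoter windows (300 bases spanning the start, GRCm38.p6) were matched for 8 of the 10 genes, and each line runs 5′ to 3′ on the strand of the gene. Capitals mark matches, on either strand, to the GC box GGGCGG or the E-box CACGTG.
Chrnb2, chr3:89764583-89764882, minus strand: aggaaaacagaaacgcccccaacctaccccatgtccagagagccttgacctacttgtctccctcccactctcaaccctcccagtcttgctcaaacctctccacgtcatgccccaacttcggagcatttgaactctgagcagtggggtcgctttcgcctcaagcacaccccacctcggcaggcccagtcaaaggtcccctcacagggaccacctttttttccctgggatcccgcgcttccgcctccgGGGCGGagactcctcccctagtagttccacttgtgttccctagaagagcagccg
Chrm2, chr6:36387834-36388133, plus strand: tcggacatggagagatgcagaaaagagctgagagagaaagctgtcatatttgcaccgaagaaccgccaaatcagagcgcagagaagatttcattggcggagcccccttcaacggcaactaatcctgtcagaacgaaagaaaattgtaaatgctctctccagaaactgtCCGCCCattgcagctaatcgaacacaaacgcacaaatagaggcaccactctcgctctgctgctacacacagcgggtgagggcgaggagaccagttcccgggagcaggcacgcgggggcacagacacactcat
Chrna7, chr7:63212477-63212776, minus strand: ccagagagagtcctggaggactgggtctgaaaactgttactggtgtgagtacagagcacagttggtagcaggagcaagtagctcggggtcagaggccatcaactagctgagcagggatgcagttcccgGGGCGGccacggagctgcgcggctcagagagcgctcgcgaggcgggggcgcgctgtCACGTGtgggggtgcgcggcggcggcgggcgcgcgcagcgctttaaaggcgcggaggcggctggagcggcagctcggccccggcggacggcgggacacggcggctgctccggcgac
Each of these windows held 1 GC box, and that of Chrna7 also held 1 E-box. Of the 8 matched windows 6 held a GC box, against 35.7% of all 32851 RefSeq windows, and 2 held an E-box, against 7.15%. The cAMP response element TGACGTCA, the AP-1 site TGANTCA and the Egr site GCGTGGGCG were in 0 of the 8 windows, against 1.79%, 7.81% and 0.612% of all windows. These are matches of letters only. The RefSeq windows of Chrm4, Chrna4 and Ache do not span the GENCODE starts of these genes.

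The remaining genes of acetylcholine signalling were examined in 7 lists of 61 genes. Of 53 that could be tested in exons, 7 rose and 1 fell, with a median log2 fold change of 0.03. That is 15.1% called, below the 31.8% over all genes tested. Blocking on the replicate number gave 13 higher and 3 lower, or 30.2%, beside 47% over all genes in the same blocked fit. None of 7 tested other nicotinic subunits passed. Those of smallest p were Chrnb3, at 2.54 ± 0.28 CPM in Mock and 1.83 ± 0.65 CPM in Pilo (log2 fold change -0.48, SE 0.23), and the muscle-type subunit Chrnb1 (0.59, SE 0.32). In introns both passed, among 6 tested subunits, beside 41.4% over all genes. Chrnb1 was higher by 1.16 (SE 0.36, edgeR adjusted p = 0.0164) and Chrnb3 lower, at -1.09 (SE 0.38, edgeR adjusted p = 0.0302). Mean intronic levels were low, at 0.991 and 2.21 CPM (Mock and Pilo) for Chrnb1 and 1.73 and 0.804 CPM for Chrnb3. The lowest library was at 0.508 CPM in Mock for Chrnb1 and 0.334 CPM in Pilo for Chrnb3, under the filter's minimum count. Each had all libraries over that minimum only in the group where it is higher. These calls are therefore not independent of how the genes were admitted. With 1 library left out, Chrnb1 lost its call in 3 fits (edgeR adjusted p up to 0.0592) and Chrnb3 in 4 (up to 0.0951). Genes particular to cholinergic neurons were scarce. Chat, the synthesizing enzyme, stood at 0.460 ± 0.252 CPM in Mock and 0.433 ± 0.0729 CPM in Pilo, and the high-affinity choline transporter Slc5a7 at 0.805 ± 0.293 and 0.968 ± 0.447 CPM. Acly and the widely expressed choline transporter Slc44a1 were abundant, at 80.97 ± 4.26 and 59.3 ± 3.42 CPM in Mock. Acly, which supplies cytosolic acetyl-CoA, came closest in that list in exons (0.20, SE 0.09, edgeR adjusted p = 0.0990), where 0 of its 4 tested genes passed. In introns 1 of 3 tested genes passed, Slc44a1, which rose by 0.42 (SE 0.11, edgeR adjusted p = 0.00819). Its exonic minus intronic difference was -0.40 (SE 0.08, edgeR adjusted p = 0.00206). Of the 3 genes for butyrylcholinesterase and cholinesterase anchors, Colq, the collagen tail of acetylcholinesterase at the neuromuscular junction, rose by 0.85 (SE 0.30, edgeR adjusted p = 0.0484). Its call was lost without any one of the libraries except Pilo replicate 2 or 4, at adjusted p values up to 0.163, and under limma-voom at 0.0941. In introns Colq rose by 1.40 (SE 0.32, edgeR adjusted p = 0.00255), and passed in all 8 fits without a library, at 1.18 to 1.58, and in the 5 other settings that could test it.

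Of 31 tested genes of the Gq and Gi pathways and of the receptor kinases and arrestins, 5 rose and 1 fell in exons. The share that rose, 16.1%, was close to the 15.6% over all genes. In introns 4 of 29 rose and 4 fell, a called share of 27.6% beside 41.4% over all genes. Of 15 tested genes of the Gq pathway, 1 rose and 0 fell. In introns 0 of 14 passed. The gene that rose in exons was Gnaq, the alpha subunit of Gq itself, at 65.9 ± 5.67 CPM in Mock and 85.0 ± 6.15 CPM in Pilo (log2 fold change 0.37, SE 0.08, edgeR adjusted p = 0.00373). Of 9 genes of the Gi pathway, the alpha subunit genes Gnai3 and Gnao1 rose by 0.51 (SE 0.08) and 0.33 (SE 0.10), and Kcnj9, a subunit of G-protein-gated potassium channels, fell by 0.27 (SE 0.07). In introns, of 8 tested genes of this list, Gnai3 rose and 3 fell, which were Gnai2, Gnaz and Kcnj3. In exons Gnao1 lost its call on leaving out Mock replicate 1, Mock replicate 2, Pilo replicate 3 or Pilo replicate 4, with adjusted p reaching 0.0955. Of 7 receptor kinases and arrestins, Grk5 and Grk2, kinases that phosphorylate activated receptors, rose. Grk5 went from 8.39 ± 0.76 to 19.4 ± 1.77 CPM (1.21, SE 0.11, edgeR adjusted p = 6.04e-06), and Grk2 from 107 ± 12.3 to 154 ± 22.2 CPM (0.53, SE 0.11, edgeR adjusted p = 0.00253).

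**Figure D5:**
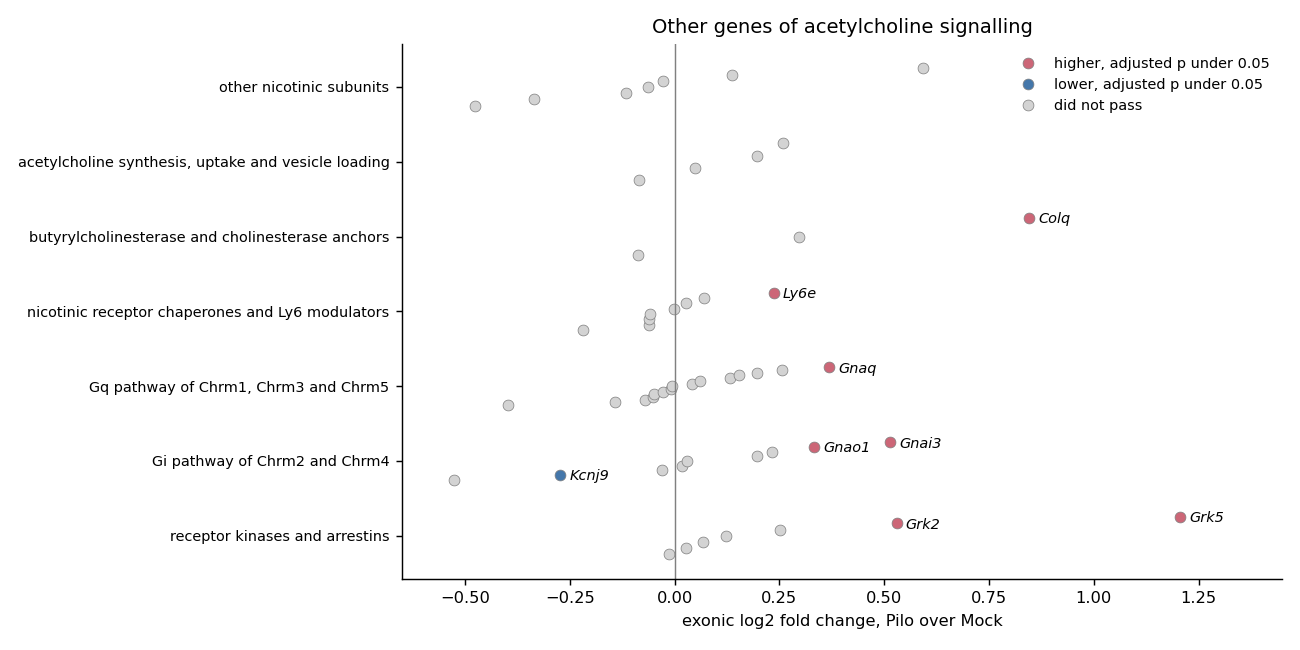
Exonic log2 fold change of Pilo over Mock for the 53 tested genes of the 7 other lists, with genes past the edgeR threshold named and coloured (red higher, blue lower). Grk5 has the largest rise, at 1.21, and Kcnj9 is the one gene that passed in the lower direction.

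Of the nicotinic receptor chaperones and Ly6 modulators, 1 of 8 passed in exons and 4 of 8 in introns, beside 31.8% and 41.4% over all genes. In exons, Ly6e rose (0.24, SE 0.07, edgeR adjusted p = 0.0243), and it did not pass without Mock replicate 2 or Pilo replicate 1 or 4, at adjusted p values up to 0.0690. In introns, Ly6e rose and 3 genes fell, which are named here after their values were seen. Tmem35a, a chaperone needed for assembly of Chrna7 channels, went from 17.4 ± 1.5 to 7.56 ± 1.99 intronic CPM (-1.19, SE 0.17, edgeR adjusted p = 8.63e-05). In the first table the exonic level of Tmem35a was 23.5 ± 1.97 CPM in Mock and 22.6 ± 2.31 CPM in Pilo. Within the second table, its exonic minus intronic difference of 1.11 (SE 0.14) passed at an edgeR adjusted p of 0.000155. Lynx1 and Lypd1, membrane-anchored modulators of nicotinic receptors, fell in introns by 0.67 (SE 0.18) and 0.66 (SE 0.14), and the differences between regions of 0.72 (SE 0.15) and 0.42 (SE 0.10) passed as well. Over all 7 lists, 8 genes rose and 8 fell of 48 tested in introns, which is 33.3% beside 41.4% over all genes. The difference between regions passed in 12 of 47 tested genes, or 25.5%, close to the 26.2% over all genes, 9 with a higher exonic and 3 with a higher intronic change.

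The genes nearest to Chrm3 and to Chrnb2 in exonic profile over the 8 libraries are named here. They are the smallest differences among many candidates, so they lie below the median by selection. Genes with a like change between the groups are favoured too. Whether they are nearer than selection alone gives was not tested. Likeness was the root mean square difference of centred log2 CPM, among genes of similar level. The genes most like Chrm3 were Gabarapl2 (0.0309), H1f0 (0.0453) and Emc3 (0.0506), against a median of 0.223 over 4634 candidates. Those most like Chrnb2 were Txlng (0.0356), Tbrg1 (0.0362) and Vps33a (0.0375), against a median of 0.203 over 4618 candidates.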

How the data were processed

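Nuclear RNA-seq of 4 Mock and 4 Pilo samples was used. Both tables hold raw counts deposited by the authors, 1 of exonic counts per Ensembl gene and 1 of exonic and intronic counts per Entrez gene, from directional poly(A) libraries per the labels' protocols. The submitters' processing notes name Trimmomatic 0.39, STAR 2.7.1a, HTSeq 0.11.2, R 4.1.1, edgeR and the build mm10. Not given in the sources used here are the annotation release, the strand setting and the rule that told exons from introns. Symbols and positions were taken from GENCODE vM21 (GRCm38) for 55144 of 55471 identifiers, and 18507 of 18513 were matched in the second table. Whether every sample came from its own mouse is not stated, and the p-values then rest on the spread among samples, possibly technical.

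Counts were fitted over all genes with edgeR 4.0.16 (R 4.3.3; TMM, filterByExpr at a minimum count of 10, robust quasi-likelihood F-test), with adjusted p under 0.05. SEs and 95% intervals are derived from the same fits. The difference between regions was the interaction of region and treatment with sample as a covariate. Alternatives were DESeq2 1.42.0, limma-voom (limma 3.58.1), RLE size factors, no filter, a filter of 50 counts in 4 samples, leaving out each library, and the replicate number as a block. The labels give both groups the numbers 1 to 4. Deviations of same-numbered samples correlated at 0.372 to 0.401 in the exonic table and 0.318 to 0.49 in the second, all above 0.1. The pairing by number is read from this correlation in the same data, not from the labels. The main fits leave it out, so calls and missed calls given without mention of the block ignore it. The fits were also run on simulated counts of independent libraries, with the same dispersion for all genes. Those runs do not cover the correlation of same-numbered samples.

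The members and gene lists were chosen with earlier results of these data known. All 10 members are named. Of the other lists, those past the exonic test and otherwise up to 2 of smallest p are named, and Chat, Slc44a1 and the genes named for introns were added after their values were seen. Likeness was judged on log2 CPM (prior count 2) among genes within 1 log2 unit of the mean. Likeness to Chrna2 is not reported here.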

Additional observations from a re-analysis of the deposited data

Results flagged for a closer look

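In 68 groups of 4 values checked for a library far from the others (Dixon's ratio above its 95% critical value, which chance gives in about 1 of 20 groups), 4 stood out. The intronic share of Chrm2 reads was 32.1% in Mock replicate 4, against 19.9% to 21.9% in the other Mock libraries. The intronic share of Chrna4 reads was 37.7% in Mock replicate 3, against 33.4% to 33.9% in the others. The intronic share of Chrna7 reads was 56.9% in Mock replicate 2, against 59.3% to 59.6%. Exonic Chrm5 stood at 0.587 CPM in Pilo replicate 2, against 0.223 to 0.265 CPM in the other Pilo libraries.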

How the results depend on the processing

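Of the 10 genes, 1 rose and 1 fell in exons, 2 rose and 1 fell in introns, and 1 rose and 1 fell in the gene body. In exons, 2 rose under DESeq2 and RLE size factors, 3 with the replicate block and 0 under the stricter filter, and 0 fell with no filter. In introns, 0 fell under RLE or limma-voom, and in the gene body 0 fell under limma-voom. With the replicate block 3 rose in introns, 4 rose in the gene body, 2 rose in exons of the second table, and 2 had a lower exonic than intronic change. The stricter filter gave 0 higher in the gene body and 0 in exons of the second table. The block changed no other call among the 10 genes. Over all genes the replicate block gave 4572 higher and 4443 lower in exons (2994 and 3107 without it). It gave 3686 and 3893 in introns (2609 and 2911) and 4281 and 3712 in the gene body (2823 and 2693). In exons of the second table it gave 3572 and 3538 (2345 and 2497), and for the difference between regions 2680 and 2446 (1756 and 1664). With the block 47% of all genes passed in exons and 56.9% in introns. Among the other cholinergic genes it gave 13 higher and 3 lower in exons and 14 higher in introns.

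When each library was left out in turn, genes higher and lower numbered 2487 to 3113 and 2356 to 3166 in exons, 2178 to 2638 and 2338 to 2955 in introns, 2369 to 2863 and 2132 to 2839 in the gene body, 1922 to 2325 and 1875 to 2585 in exons of the second table, and 1249 to 1744 and 1251 to 1670 for the difference between regions. Members higher numbered 1 to 2 in either exonic table and in introns, and members lower 0 to 1 in exons, introns and the gene body and 1 to 2 for the difference. The other cholinergic genes numbered 4 to 9 higher and 1 to 3 lower in exons, and 6 to 12 higher and 7 to 9 lower in introns.

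Signs turned in changes that had passed no test. With 1 library left out, values ran from -0.075 to 0.031 for Chrm4, -0.070 to 0.27 for Chrm2 and -0.0029 to 0.22 for Ache in exons, from -0.099 to 0.25 for Chrm2 and -0.032 to 0.19 for Ache in exons of the second table, from -0.10 to 0.091 for Chrm1 and -0.19 to 0.065 for Chrna4 in introns, from -0.18 to 0.021 for Chrna4 in the gene body, and from -0.13 to 0.10 for Chrm3 and -0.025 to 0.25 for Chrm1 for the difference between regions. Intronic Chrm1 was 0.0019 under DESeq2 and 0.0018 under RLE, and the difference for Chrm3 was -0.00066 under RLE and -0.0059 under the stricter filter. The cause was not tested. Depth limits Chrm5 and Chrna2, with at most 22 exonic reads per library.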
